A study of Mus musculus with 16 samples.

Results

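The expanded clonotypes described here are the TCRα sequences that each took at least 0.1% of the reads of one library of unselected CD8 T cells. A clonotype is one CDR3 nucleotide sequence, which is 1 row of a library's table, and its share is its read count divided by all reads of that library. Of 78671 rows in 8 unsorted libraries, 644 reached this share and 78027 did not, and these 644 rows held 620 different nucleotide sequences. The members were chosen by their read share, so their number and their joint share are given as a description with no test.

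The libraries came from 2 kinds of mice on a C57BL/6 background, Themis+/+Foxp3-GFP and Themis-/-Foxp3-GFP, which carry the same Foxp3 reporter and differ in a germline deletion of Themis (B6.129S-Themis tm1Gasc), a T lineage protein that acts downstream of the TCR and takes part in thymic selection. CD8 T cells were taken from lymph nodes (LN) and CD8 single positive thymocytes from the thymus, with 2 libraries for each genotype and tissue. The series' design names an individual mouse for each data set, whereas the methods say that LN cells were pooled from several mice of one genotype, so the spread between libraries may be partly technical and the age of the mice is not stated in the sources. A further 8 libraries held cells sorted for the Vα3.2 chain (TRAV9N-3) and served to look up sequences and to compare substitutions against the germline J segment. Only TCRα reads are in the tables, so the CD8 label itself could not be checked.

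A TCRα chain is made when a V segment is joined to a J segment in a thymocyte. Enzymes trim both ends, short palindromic P nucleotides can remain, and terminal transferase adds random N nucleotides, so the joint (the CDR3, from the conserved cysteine of V to the conserved phenylalanine or tryptophan of J) is the most variable part of the chain. A joint without N nucleotides can be made in many cells and many mice and is often called public, whereas a joint with several N nucleotides is rarely made more than once. A TCRα chain with a large share of a library can mark one expanded T cell clone, many clones that made the same chain, or uneven amplification, and more cells and more TCRα RNA per cell cannot be told apart in such reads.

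One clonotype was expanded in all 8 libraries and is shown first because no other sequence had that spread except its own 1-base companion. It joins a TRAV14 segment to TRAJ22. In GENCODE M21 on GRCm38 the TRAJ22 segment lies at chr14:54197248-54197307 on the plus strand, and 4 TRAV14 segments that end in the same 13 bases from the cysteine codon lie upstream on the same strand, among them Trav14d-1 at chr14:52855614-52856166 and Trav14n-2 at chr14:53259578-53260179. These 13 bases followed by the first 29 bases of TRAJ22 give the whole CDR3 of 42 nucleotides, with no trimming and no added base. In the lines below, the germline ends are in capitals because every base is shared with the clonotype, and in the companion the capital marks the substitution T38G, counted from 1 at the 5′ end of the CDR3.
TRAV14 germline end: TGTGCAGCAAGTG
TRAJ22 germline start: CATCTTCTGGCAGCTGGCAACTCATCTTT
TRAV14-TRAJ22: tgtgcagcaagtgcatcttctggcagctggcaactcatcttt
TRAV14-TRAJ22 with T38G: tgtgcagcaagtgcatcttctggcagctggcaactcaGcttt

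The next lines show the 8 other CDR3s that were expanded in more than 1 library and lead by mean share, to let the joints be compared. In the first 6, capitals mark bases that both germline segments can supply, and a line without capitals is a joint in which the V and J bases meet exactly. In the last 2, capitals mark bases beyond the germline ends of both segments, which were counted as P nucleotides.
TRAV12-TRAJ30: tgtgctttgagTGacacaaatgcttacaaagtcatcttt
TRAV3-TRAJ22: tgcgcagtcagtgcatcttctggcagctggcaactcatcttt
TRAV6-TRAJ23: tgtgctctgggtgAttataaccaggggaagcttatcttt
TRAV14-TRAJ34: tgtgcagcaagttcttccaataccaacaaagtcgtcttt
TRAV3-TRAJ13: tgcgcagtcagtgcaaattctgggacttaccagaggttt
TRAV3-TRAJ30: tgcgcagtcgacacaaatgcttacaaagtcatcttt
TRAV16-TRAJ22: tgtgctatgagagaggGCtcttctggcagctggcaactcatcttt
TRAV12-TRAJ7: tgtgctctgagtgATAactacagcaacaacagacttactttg

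The last set holds all 10 of the clonotypes that were among the 2 most abundant of a library and were expanded in that library alone. In the first 8, capitals mark bases beyond the germline ends of both segments, which are N or P nucleotides. The last 2 need no such base, and their capitals mark bases that both segments can supply.
TRAV8-TRAJ21, leading in Themis-/- thymus library 1: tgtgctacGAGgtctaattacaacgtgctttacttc
TRAV12-TRAJ50, the next in the same library: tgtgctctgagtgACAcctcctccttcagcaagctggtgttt
TRAV10-TRAJ13, leading in Themis-/- LN library 1: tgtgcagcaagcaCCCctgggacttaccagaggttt
TRAV6-TRAJ12, leading in Themis-/- thymus library 2: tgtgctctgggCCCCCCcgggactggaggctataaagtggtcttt
TRAV14-TRAJ31, leading in Themis+/+ LN library 1: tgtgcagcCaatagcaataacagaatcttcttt
TRAV12-TRAJ34, next most abundant in Themis+/+ LN library 2: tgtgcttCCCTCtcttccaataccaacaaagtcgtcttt
TRAV16-TRAJ21, leading in Themis+/+ LN library 2: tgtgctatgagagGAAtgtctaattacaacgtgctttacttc
TRAV3-TRAJ49, next most abundant in Themis-/- LN library 2: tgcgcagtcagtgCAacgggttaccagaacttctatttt
TRAV12-TRAJ26, leading in Themis+/+ thymus library 2: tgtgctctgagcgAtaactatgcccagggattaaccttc
TRAV7-TRAJ31, next most abundant in Themis+/+ thymus library 1: tgtgcagtgAGCAtcaacagaatcttcttt

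A property of the unsorted libraries touches every result below and is given first. In these 8 libraries 49.9% to 57.3% of the rows, with 30.2% to 36.8% of the reads, differed from the germline J segment within the last 12 bases of the CDR3. In the sorted libraries this held for 0.542% to 2.38% of the rows. Of 51653 such substitutions 77.0% were T-to-G and 16% G-to-T, and they lay mainly 4 to 9 bases from the 3′ end of the CDR3, with 19.9 substitutions per 100 rows at position 5. Among the expanded rows 46 of 644 carried one, and in 46 of these 46 the row with the germline base was also expanded in the same library and had more reads, the ratio running from 0.129 to 0.897 with a median of 0.501. Whether such a pair of rows came from one joint was not tested, and the values below are also given after the substituted bases were put back to the germline base and identical rows summed. That step left 2164 to 9829 rows per library and raised the number of expanded rows from 644 to 1287, and each of the 644 original rows was still expanded or part of an expanded row.

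**Figure D1:**
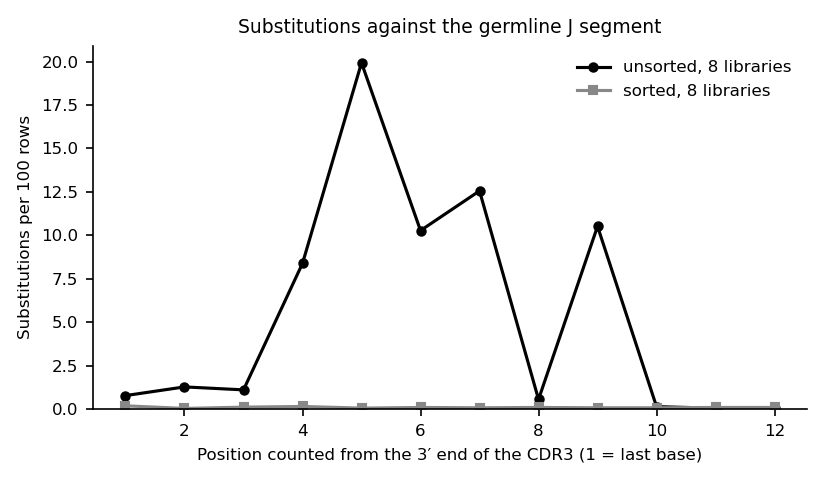
Substitutions against the germline J segment per 100 rows (y axis) by position counted from the 3′ end of the CDR3 (x axis), for the 8 unsorted and the 8 sorted libraries. The unsorted libraries peak at position 5 with 19.9 per 100 rows and the sorted libraries stay near 0 at every position.

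The LN libraries of Themis-/- mice held the most expanded clonotypes. In LN, Themis-/- libraries 1 and 2 held 196 and 146, and Themis+/+ libraries 1 and 2 held 25 and 119. Both Themis-/- libraries lay above both Themis+/+ libraries, and the mean of 171 ± 35.4 (SD, n = 2) exceeded that of 72 ± 66.5 (SD, n = 2) by 99, more than the larger SD. Themis+/+ LN library 1 was the deeper of its pair, with 125483 reads against 57455, and without it the difference was 52. The number of rows ran the opposite way, with 4357 and 5416 rows in Themis-/- libraries 1 and 2 and 12607 and 5753 in Themis+/+ libraries 1 and 2. Expanded rows were 4.5% and 2.70% of all rows in Themis-/- and 0.198% and 2.07% in Themis+/+. The part of the number of rows in the difference was not tested.

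The joint share of reads followed the same order. Expanded clonotypes took 35.1% (95% Wilson interval 34.7 to 35.4) and 24.6% (24.3 to 24.9) of the LN reads in Themis-/-, and 3.90% (3.8 to 4.01) and 20.5% (20.2 to 20.8) of those in Themis+/+. These intervals cover counting error only, since PCR reads without molecular identifiers are not independent molecules. The difference between the means was 17.6 percentage points, with 29.8 ± 7.43 in Themis-/- and 12.2 ± 11.7 in Themis+/+ (SD, n = 2), and 9.35 points without Themis+/+ LN library 1. With the J-end bases put back the numbers rose to 309 and 317 in Themis-/- and to 61 and 248 in Themis+/+ LN libraries, and the joint shares to 65.3% and 57.3% against 8.85% and 42.8%, in the same order. Expected at the 57455 reads of the smallest library, the difference in number was 98.3 and in joint share 17.6 points.

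In the thymus the genotypes overlapped. The Themis-/- libraries held 44 and 37 expanded clonotypes with 9.45% (9.30 to 9.60) and 6.24% (6.10 to 6.38) of the reads, and the Themis+/+ libraries 17 and 60 with 2.37% (2.28 to 2.45) and 9.01% (8.83 to 9.19). The differences between the means, 2 clonotypes and 2.16 percentage points, were smaller than the spread within Themis+/+, whose SD was 30.4 clonotypes and 4.70 points (n = 2). Leaving out 1 of the Themis+/+ libraries turned the difference in number to -19.5 or 23.5, and leaving out a Themis-/- library gave -1.5 or 5.5.

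**Figure D2:**
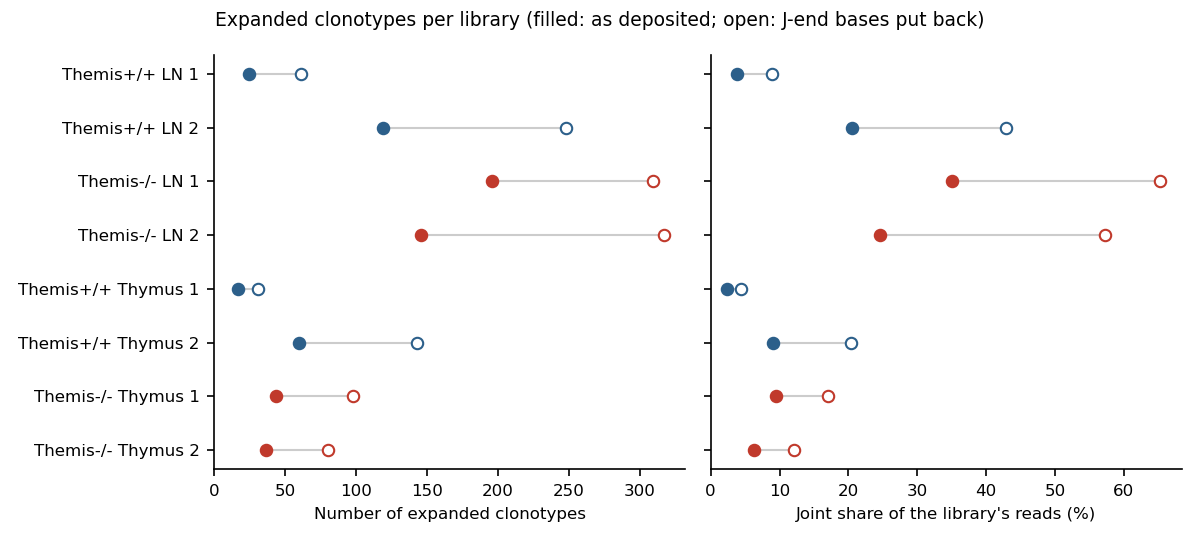
Number of expanded clonotypes (left) and their joint share of the library's reads in percent (right) for each of the 8 unsorted libraries, as deposited (filled points) and with J-end bases put back (open points). Both Themis-/- LN libraries lie to the right of both Themis+/+ LN libraries in each panel, and the thymus libraries of the 2 genotypes overlap.

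Most members sat close to the threshold. Their median share was 0.135%, 493 of 644 were below 0.2% and 3 reached 1%. The least abundant members had 58 to 147 reads, depending on the depth of the library, and shares of up to 0.105%, while the most abundant rows left out had 57 to 146 reads and 0.0989% to 0.0999%.

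The 3 largest members were each private to 1 library, but not all of the 10 members above 0.5% were. The TRAV14-TRAJ22 clonotype, at 0.727% in Themis-/- LN library 2, was read in all 7 others. The TRAV6-TRAJ12 clonotype, at 0.644% in Themis-/- thymus library 2, was read in 1 other. In Themis-/- thymus library 1 the TRAV8-TRAJ21 clonotype had 1778 reads, 1.22% of the library (1.16 to 1.27), and the TRAV12-TRAJ50 clonotype 1752 reads, 1.2% (1.14 to 1.26), and neither sequence was read in any of the other 7 unsorted libraries. The TRAV10-TRAJ13 clonotype of Themis-/- LN library 1 had 747 reads, 1.12% (1.04 to 1.2), and was likewise not read elsewhere. These 3 were the only members above 1%. In Themis+/+ LN library 1 the leading TRAV14-TRAJ31 clonotype had 673 reads or 0.536% (0.497 to 0.578), and in Themis+/+ thymus library 2 a TRAV12-TRAJ26 clonotype had 380 reads or 0.386% (0.349 to 0.427); both were found in their own library alone. The leading TRAV16-TRAJ21 clonotype of Themis+/+ LN library 2, with 306 reads, occurred with 1 read in 2 other libraries.

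The TRAV14-TRAJ22 clonotype without added bases was the most abundant or the next most abundant row in 5 of the 8 libraries. In LN it had 657 and 233 reads (Themis+/+) and 253 and 588 reads (Themis-/-). In the thymus it had 496 and 303 reads (Themis+/+) and 603 and 628 reads (Themis-/-). Its share ran from 0.308% in Themis+/+ thymus library 2 to 0.727% in Themis-/- LN library 2, and the genotypes overlapped in the LN, with 0.524% and 0.406% in Themis+/+ against 0.379% and 0.727% in Themis-/-. In the thymus both Themis-/- libraries, at 0.412% and 0.542%, were above both Themis+/+ libraries, at 0.397% and 0.308%, but the counting intervals of 0.412% and 0.397% overlapped.

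Its T38G companion followed it closely. The companion had 115 to 312 reads, 0.132% to 0.378% of a library, and 0.365 to 0.621 reads for each read of the germline form. Over all TRAJ22 reads of a library, 23.8% to 29.8% carried a J-end substitution. With the bases put back the TRAV14-TRAJ22 clonotype took 0.515% to 1.31% of a library and ranked first in 6 of 8 libraries, the exceptions being Themis-/- LN library 1, where it ranked 4, and Themis-/- thymus library 1, where it ranked 3. Neither form was read in the 8 sorted libraries, whose cells were chosen for another V segment; a count of 0 there allows a share of up to 0.0119% to 0.0290%.

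Of the 620 different sequences 11 were expanded in 2 or more libraries, and the 10 with the highest mean share are described here. The TRAV3-TRAJ22 clonotype, which uses the same J segment, was expanded in 3 libraries and was read in 7, with 143 reads or 0.115% in Themis+/+ thymus library 1 as its highest count, and was not read in Themis-/- LN library 1. The TRAV3-TRAJ30 clonotype was read in all 8, with 3 to 140 reads, and was expanded in Themis+/+ LN library 2 (0.124%) and Themis-/- LN library 1 (0.210%). The TRAV14-TRAJ34 clonotype differed from these: it had 182 reads (0.317%) in Themis+/+ LN library 2 and 175 reads (0.216%) in Themis-/- LN library 2 and none in the other 6 libraries. The TRAV12-TRAJ30 clonotype was expanded in 2 Themis-/- libraries, with 326 reads in LN library 1 and 117 in thymus library 2, and was read at 38 to 55 reads in 3 others. In 8 of these 10 the joint needed neither N nor P nucleotides, with the TRAV14-TRAJ22 clonotype and its companion counted separately. This was also true of 179 of all 644 members. The comparison with other rows is given below, with P nucleotides counted as N.

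**Figure D3:**
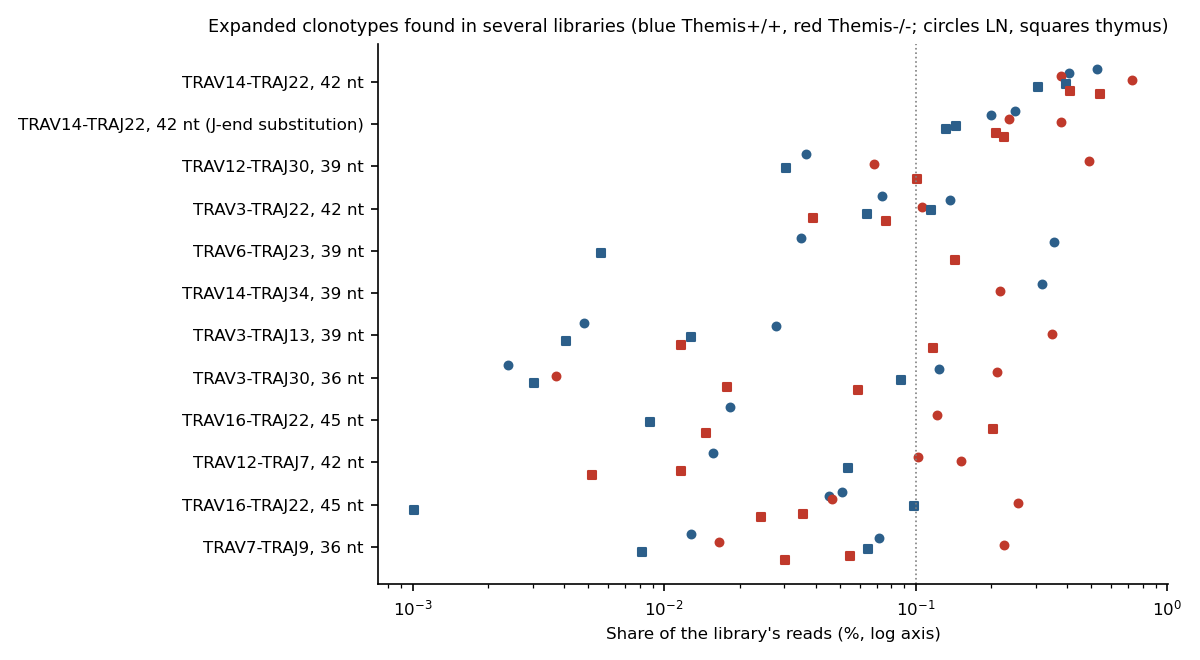
Share of the library's reads in percent (log axis) for the 10 clonotypes expanded in 2 or more libraries and the 2 further ones found in all 8, each point 1 library in which the sequence was read; the dotted line is the threshold of 0.1%. The TRAV14-TRAJ22 clonotype lies between 0.308% and 0.727% in all 8 libraries and its companion between 0.132% and 0.378%, whereas each of the other 10 falls below the line in some library or is missing from it.

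Sharing was not limited to these few. Of the 644 expanded rows 231, or 35.9%, had the identical CDR3 nucleotide sequence in another unsorted library, 22 had it in all the other 7, 16 of those being the TRAV14-TRAJ22 pair, and 413 were found in their own library alone. In LN the share found elsewhere was 36% and 33.6% for Themis+/+ and 34.7% and 37.7% for Themis-/-. In the thymus it was 52.9% and 23.3% for Themis+/+ and 43.2% and 45.9% for Themis-/-. Among the other rows of the same libraries it was 16.7% to 21.0%. Expanded rows were higher in 8 of 8 libraries, by a mean of 19.8 percentage points ± 9.53 (SD over libraries), with an adjusted p of 0.0117 (two-sided exact sign-flip permutation test over 8 libraries, adjusted over 6 measures), which rests on the smallest p, 0.00781, that 8 libraries can give. The 8 differences were not independent, because each library was searched in the other 7 and a sequence expanded in several raised each of them. The TRAV14-TRAJ22 pair did so in all 8, and the test does not allow for this.

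The excess was 15.5 points when at least 2 reads were required in the other library, and 16.1 points with J-end bases put back (adjusted p = 0.0117 in both, same exact test). It fell to 9.23 points when rows with a J-end substitution were left out (adjusted p = 0.0234, exact test), where 32.6% of expanded and 23.4% of other rows were shared. When an expanded row was found in another library it had a median of 17 reads there, in 59 of 575 such findings it had 1 read, and in 134 it was expanded there as well.

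How often members were found differed with the library searched. Of the 196 members of Themis-/- LN library 1, 18 (9.18%) were found in Themis-/- LN library 2, 18 (9.18%) in Themis+/+ LN library 1 and 29 (14.8%) in Themis+/+ thymus library 1, the library with the most rows. Of the 119 members of Themis+/+ LN library 2, 16 (13.4%) were found in its replicate and 19 (16%) in Themis+/+ thymus library 1. Of the 44 members of Themis-/- thymus library 1, 10 (22.7%) were found in its replicate and 3 (6.82%) in each of the Themis-/- LN libraries. Of the 17 members of Themis+/+ thymus library 1, 6 (35.3%) were found in its replicate and 2 (11.8%) in Themis-/- LN library 1. The libraries searched held 4357 to 16670 rows, and these counts were not tested. Each count includes both rows of the TRAV14-TRAJ22 pair. The share of the other rows found in each library searched is not given beside them.

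Expanded rows, with the TRAV14-TRAJ22 pair counted, more often lacked N nucleotides. The share without any was 56.0% and 38.7% in Themis+/+ LN, 36.2% and 44.5% in Themis-/- LN, 41.2% and 35% in the Themis+/+ thymus, and 43.2% and 32.4% in the Themis-/- thymus. Among the other rows it was 31.7% to 37.1%. The expanded rows were higher in 7 of 8 libraries, Themis-/- thymus library 2 being the exception, by a mean of 7.16 points ± 7.46 (SD; adjusted p = 0.0188, exact sign-flip permutation test). The TRAV14-TRAJ22 pair, which has no N nucleotide, was among the members of every library. In Themis+/+ thymus library 1 only 7 of 17 members lacked N, the pair included. In Themis+/+ thymus library 2 it was 21 of 60, the pair included, against 33.1% of the other rows. The 8 differences thus share this pair, and the difference without it was not tested. With J-end bases put back the difference was 8.15 points and positive in 8 of 8 libraries (adjusted p = 0.0117, exact test), it was 4.59 points with substituted rows left out, and it was 6.03 points with P nucleotides counted as N (adjusted p = 0.0188, exact test). Without rows of 1 read it was 6.39 points and its adjusted p 0.0563 in the same exact test, above the threshold of 0.05.

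The mean number of N nucleotides was 1.92 in expanded and 2.00 in other rows, a difference of -0.07 that did not pass (adjusted p = 0.453, exact permutation test). It was -0.34 and negative in 8 of 8 libraries with J-end bases put back (adjusted p = 0.0117, exact test). At the stricter threshold of 0.2%, which kept 151 rows and as few as 1 in a library, the mean number was lower by 0.861, the share without N was higher by 22.9 points, the share found elsewhere by 44.3 points and hydropathicity by 0.213, each over 1.5 times the value at 0.1%. In Themis+/+ thymus library 1 the only row kept was the TRAV14-TRAJ22 clonotype, at 0.397%, the next row having 0.167%. In Themis+/+ LN library 1 this clonotype and its companion, at 0.524% and 0.249%, were both kept. The values at 0.2% without the pair were not tested.

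Absence of N nucleotides and presence in other libraries went together among the members, as a description over pooled rows. Of the 255 members without N nucleotides 149 (58.4%) were found in another unsorted library, of the 259 with 1 to 3 it was 68 (26.3%), and of the 130 with 4 or more it was 14 (10.8%). The corresponding shares of the other rows were 32.6%, 14.5% and 3.0%, lower in each class. With J-end bases put back the members stood at 55.9%, 28.9% and 9.79% and the other rows at 40.9%, 20.7% and 4.71%. Within libraries, members without N were found elsewhere more often than members with N in 7 of 8 libraries, for example 55.4% against 23.5% in Themis-/- LN library 2; in Themis-/- thymus library 2 the shares were 41.7% and 48.0%.

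The CDR3 of the members was more hydrophobic than that of the other rows. Mean Kyte-Doolittle hydropathicity per residue, a scale on which hydrophobic residues are positive, was 0.361 and 0.262 in Themis+/+ LN, 0.220 and 0.236 in Themis-/- LN, 0.456 and 0.212 in the Themis+/+ thymus and 0.208 and 0.292 in the Themis-/- thymus. In the other rows it was 0.144 to 0.212. The expanded rows were higher in 8 of 8 libraries, by a mean of 0.103 ± 0.0929 (SD; adjusted p = 0.0117, exact sign-flip permutation test). In Themis-/- LN library 1 this amounted to 0.00762, the smallest difference. The TRAV14-TRAJ22 clonotype, at 0.786, and its companion, at 0.407, were among the members of every library, and the difference without them was not tested. With J-end bases put back the mean difference was 0.0679, in 7 of 8 libraries (adjusted p = 0.0188, exact test), and with substituted rows left out it was 0.0531 (adjusted p = 0.0312, exact test).

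By residue, leucine, isoleucine and tryptophan were more frequent in the members and cysteine less, on both treatments of the J end. Leucine made up 11.4% ± 0.792 of the residues between the ends of expanded CDR3s and 8.97% ± 0.268 in other rows (SD, n = 8), higher in 8 of 8 libraries, and 10.6% against 9.77% with bases put back, higher in 7 of 8. Isoleucine stood at 3.8% against 3.05%, and at 4.45% against 3.97% with bases put back. Valine and tyrosine, lower in expanded rows of 8 of 8 libraries as deposited, were lower in 5 of 8 with bases put back. TRAJ22, whose germline bases encode leucine, isoleucine and tryptophan, made up a mean of 14.4% of expanded and 5.42% of other rows. With bases put back it made up 11.4% and 6.34%. Its part in these residues, and that of the TRAV14-TRAJ22 pair present in every library, was not tested. No residue was tested singly.

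An internal cysteine was rare in the members. It occurred in 1 of 196 and 1 of 146 expanded rows of the Themis-/- LN libraries and in none of the 302 expanded rows of the other 6 libraries, a count of 0 that allows up to 0.993%, against 2.14% to 2.79% of the other rows, a mean difference of -2.37 points with expanded rows lower in 8 of 8 libraries (adjusted p = 0.0117, exact test). A cysteine near the middle of a CDR3 has been described as a feature of self-reactive receptors that are removed during selection. The measure used here takes a cysteine at any position between the ends, and a part of selection was not tested. With J-end bases put back the other rows held it in 0.377% to 0.865% and the difference shrank to -0.413 points (adjusted p = 0.0117, exact test), and with substituted rows left out it was -0.125 points and did not pass (adjusted p = 0.638, exact test).

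The difference in CDR3 length depended on the J end. As deposited, expanded rows averaged 41.2 nucleotides ± 0.455 and other rows 40.6 ± 0.154 (SD, n = 8), longer in 8 of 8 libraries (adjusted p = 0.0117, exact test). With J-end bases put back they were shorter by a mean of 0.335 nucleotides, in 7 of 8 libraries (adjusted p = 0.0547, exact test), and with substituted rows left out they differed by 0.05 nucleotides (adjusted p = 0.703, exact test). The members themselves ran from 30 to 54 nucleotides with a median of 42.

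**Figure D4:**
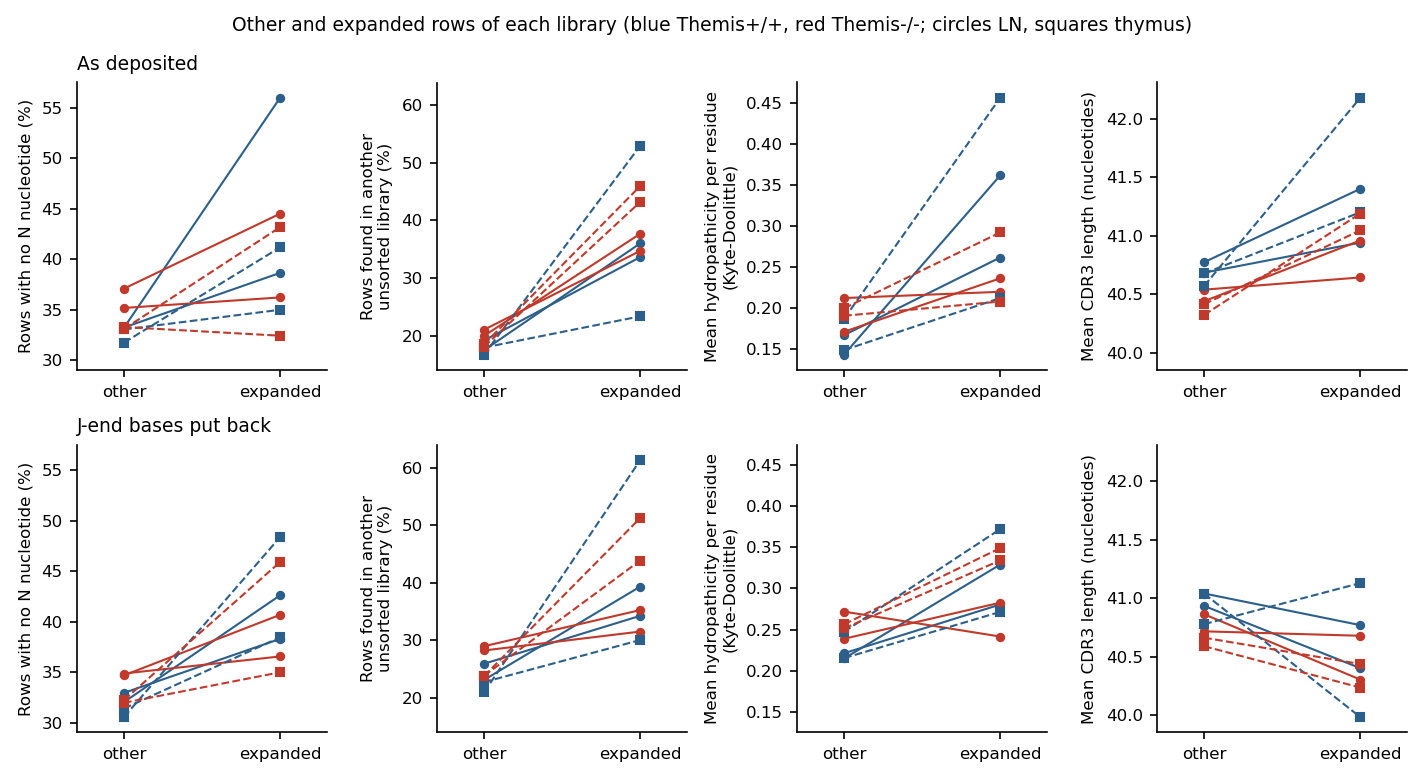
Share of rows without N nucleotides, share found in another unsorted library, mean hydropathicity and mean CDR3 length for the other and the expanded rows of each library (1 line per library), as deposited (top) and with J-end bases put back (bottom). The share found elsewhere rises in all 8 libraries in both rows of panels, while the length difference changes direction.

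No difference between genotypes or tissues in these properties of the members passed a test. For Themis-/- minus Themis+/+ within tissue the differences were -0.47 nucleotides of length, -3.62 points without N, 3.90 points found elsewhere and -0.0837 in hydropathicity, with adjusted p from 0.444 to 0.778. For LN minus thymus within genotype they were -0.42 nucleotides, 5.90 points, -5.86 points and -0.0223, with adjusted p from 0.667 to 0.722. Both sets come from an exact permutation test with 36 arrangements, adjusted over 4 measures, which cannot go below p = 0.0556, so no call was possible at 0.05. In the Themis+/+ thymus, for example, the share found elsewhere was 38.1% ± 20.9 (SD, n = 2), and a difference of a few points could not have been seen.

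The members used 18 V families and 42 J segments. TRAV12, one of the large families, supplied 145 rows and TRAV6, another, 139, followed by TRAV7 with 78, TRAV14 and TRAV3 with 50 each and TRAV13 with 44. The share of TRAV12 among expanded rows was higher than among the other rows in 7 of 8 libraries, with means of 26.2% and 17%, and the exception was Themis-/- LN library 1 at 15.8%. TRAV6 was also higher in 7 of 8 libraries, with means of 24.0% and 12.8% and a range of 11.8% to 40.0%; with J-end bases put back TRAV12 was higher in 7 and TRAV6 in 8 libraries, with means for TRAV6 of 18.2% and 13.2%. Other families were lower, such as TRAV16 with 2.99% against 5.98%, higher in 1 of 8 libraries on both treatments. These shares were not tested.

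In 3 of the 4 LN libraries TRAV13 made up 8.90% to 9.69% of the deposited members, near its share of the other rows. It supplied 11 of 119 members of Themis+/+ LN library 2, 19 of 196 and 13 of 146 members of the Themis-/- LN libraries, and 0 of 25 members of Themis+/+ LN library 1, which allows up to 12%. In the thymus it supplied 1 of 158, although it made up 7.22% to 8.40% of the other thymic rows and 8.05% to 9.04% of the other LN rows. With J-end bases put back it supplied 23 of 352 members in the thymus and 84 of 935 in the LN, so the near absence held for the deposited rows and not after summing.

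TRAV9, the family of the Vα3.2 chain, supplied 19 members. In LN these were 0 and 4 for Themis+/+ and 6 and 3 for Themis-/-, and in the thymus 1 and 1 for Themis+/+ and 2 and 2 for Themis-/-. TRAV9 made up a mean of 3.25% of expanded rows (range 0% to 5.88%) and 3.45% of other rows (2.27% to 6.68%), higher among expanded rows in 4 of 8 libraries. Of the 19 rows 10 used the TRAV9-3 segments, and 5 of those 10 were read in a library sorted for Vα3.2. The share of other TRAV9-3 rows read there is not given, so these 5 cannot be called more or fewer than among other rows. The TRAV9N-3-TRAJ26 clonotype of Themis-/- LN library 2, with 86 reads or 0.106% there, was the most widespread, read in 5 sorted libraries, among them the sorted LN libraries of Themis-/- (959 and 93 reads) and of Themis+/+ (136 and 443 reads). The TRAV9N-3-TRAJ9 clonotype of Themis-/- LN library 1 was read 39 and 21 times in the sorted Themis-/- LN libraries and not in the sorted Themis+/+ LN libraries. A further 4 members, of other families, were also read in sorted libraries.

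**Figure D5:**
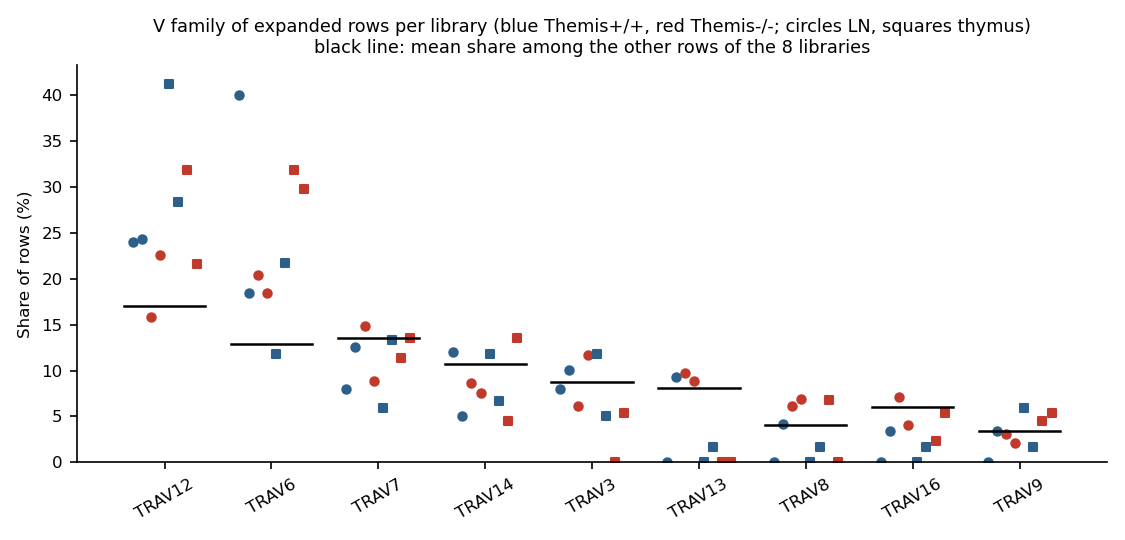
Share of expanded rows in percent that used each of the 9 most frequent V families, 1 point per library, with the mean share among the other rows of the 8 libraries as a black line. TRAV12 and TRAV6 lie above the line in 7 of 8 libraries each, and TRAV13 is at or near 0 in the thymus libraries.

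TRAJ22 was the leading J segment of the members. It supplied 73 of 644 rows, 16 of them the TRAV14-TRAJ22 pair, and its share was higher among expanded than among other rows in 8 of 8 libraries, from 7.53% in Themis-/- LN library 2 to 28.0% in Themis+/+ LN library 1 against 4.70% to 6.25%. Leaving out the pair it was higher in 7 of 8, and with J-end bases put back in 8 of 8. TRAJ26 followed with 35 rows, TRAJ30 with 33, TRAJ45 with 31, TRAJ39 with 28 and TRAJ9 with 26.

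The place of TRAJ45 and TRAJ39 moved with the J-end substitutions. TRAJ45 made up a mean of 5.04% of expanded and 1.4% of other rows as deposited, and 2.45% and 2.40% with bases put back. TRAJ39 made up 3.88% and 1.23% as deposited, and 1.9% and 2.11% with bases put back. Between 1.28% and 4.67% of the reads of these 2 segments carried a J-end substitution in a library, against 23.8% to 29.8% for TRAJ22 and 31.9% to 40.0% for TRAJ9. Over the 43 J segments with at least 1000 reads this share ran from 1.95% to 59.0%.

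Rearrangements of segments used by other lineages were few among the members. They were taken by V and J segment alone, with no check for an invariant CDR3. Joints of TRAV11 to TRAJ18, the segments of the invariant natural killer T cell chain, supplied 1 expanded row in each Themis-/- thymus library. Summed over all rows with these segments, TRAV11-TRAJ18 took 0.354% and 0.419% of the reads in the Themis-/- thymus, 0.0553% and 0.116% in the Themis+/+ thymus, and at most 0.0418% in an LN library. Joints of TRAV1 to TRAJ33, the segments of the mucosal-associated invariant T cell chain, supplied 0 of 644 members, which allows up to 0.466%, and at most 0.0424% of the reads. Segments named TRDV, which are used mainly by the δ chain but can join to TRAJ, supplied 5 members. Whether such cells were in the sorted populations was not tested.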

How the data were processed

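TCRα repertoires were measured in 16 libraries, of which the 8 unsorted ones are analysed. Per the paper's methods, RNA of sorted CD8 cells was reverse transcribed with template switching, amplified in 2 rounds of PCR without molecular identifiers, sequenced on a MiSeq and processed with MiXCR and VDJtools (versions not stated); the submitters' processing notes name CASAVA 1.4 and mm9. For every CDR3 nucleotide sequence the authors deposited an unnormalized read count. They also deposited it as a fraction of all reads in the library. Only in-frame sequences without stop codons are in the tables. Unsorted libraries held 57455 to 146191 reads and sorted ones 10338 to 25247; rows with 1 read were 14.8% to 21.2% of unsorted rows.

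Expanded rows had a count of at least 0.001 of the library's total. V and J are the first best hits, and 68 of 644 members had several equal V hits, so near-identical segments are uncertain and families are given. N nucleotides are bases between the deposited V and J alignments; these run past the germline ends as P nucleotides, by more than 2 bases in 12.9% of rows and by up to 20, and an alternative counts them as N. Expanded and other rows were compared per library with exact sign-flip tests, groups with exact permutation within strata, all two-sided, with Benjamini-Hochberg adjustment and a threshold of 0.05. The steps were tested on simulated data. Intervals are 95% Wilson, and a count of 0 allows 3 counts. Named clonotypes were the 2 most abundant per library, the 5 found in most libraries and the 10 of highest mean share expanded in 2 or more; a few of these are printed. Members and lists were chosen with earlier results of these data known. The alternatives on J-end substitutions (put back or left out) and the leaving out of single libraries were chosen after seeing the data. Scripts ran in Python 3.11.15 with scipy 1.17.1, numpy 2.4.6, matplotlib 3.10.9 and pandas 2.3.3; germline segments came from GENCODE M21 on GRCm38.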

Additional observations from a re-analysis of the deposited data

How the results depend on the processing

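Between expanded and other rows, the differences in the share found in another unsorted library, the share without N nucleotides, hydropathicity and internal cysteine kept their direction under every alternative run. No such run left out the TRAV14-TRAJ22 pair, which was among the members of every library. The share found elsewhere and hydropathicity also kept their call, except where a replicate number was left out of all groups, which leaves 4 libraries and no p below 0.125; the share without N lost it without rows of 1 read (6.39 points), and internal cysteine without J-end substituted rows (-0.125 points). CDR3 length lost its call at a threshold of 0.05% (0.0903 nucleotides) and 0.2% (0.201), with the 50 most abundant rows (0.453), with rows weighted by reads (0.429) and without J-end substituted rows (0.0478), and reversed with J-end bases put back (-0.335). The number of N nucleotides gained a call at 0.05% (-0.158) and 0.2% (-0.861), with rows merged by amino acid sequence (-0.192), with J-end bases put back (-0.341; -0.312 with P counted as N) and without substituted rows (-0.146). The causes were not tested.

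Leaving out replicates or single libraries gave ranges of 0.437 to 0.845 nucleotides of length, 0.0787 to 0.128 in hydropathicity, 9.88 to 20.1 points found elsewhere, -2.43 to -2.31 points with cysteine, 3.48 to 10.8 points without N and -0.142 to -0.00416 N nucleotides.

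The comparisons between genotypes and tissues, none of which could pass, changed direction in several settings. For genotype these were length with the 50 most abundant rows (0.06), hydropathicity at 0.05% (0.000241), the share found elsewhere at 0.2% (-9.97), by amino acid sequence (-0.878) and with J-end bases put back (-0.758), and the share without N without substituted rows (0.753). For tissue they were length at 0.05% (0.118), with bases put back (0.092) and without substituted rows (0.0349), the share found elsewhere with the 50 most abundant rows (0.5) and by amino acid sequence (1.53), and the share without N at 0.2% (-10.7), with merged rows (-0.0872) and with bases put back (-2.39; -3.27 with P as N). Leaving out libraries gave, for genotype, -0.786 to -0.154 nucleotides, -0.195 to 0.0273 in hydropathicity, -1.71 to 11.9 points found elsewhere and -8.89 to 1.65 points without N, and for tissue -0.661 to -0.173, -0.0832 to 0.0387, -9.84 to 7.33 and 1.57 to 10.2.

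The LN difference in number was 190 at 0.05%, 27.5 at 0.2%, 158.5 with bases put back and 27 to 171 over the libraries left out; the joint share difference was 4.73 points for the 50 most abundant rows, 35.5 with bases put back, 31.3 without substituted rows and 4.10 to 31.2 over the libraries left out. The thymus difference in number was -4 at 0.05%, 7 at 0.2%, 0.5 with merged rows, 1 without rows of 1 read, 4 without substituted rows and -23 to 27 over the libraries left out, and in joint share -2.77 to 7.08. With the 50 most abundant rows the number is fixed and has no difference.

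With replicate number as a block the between-group values are the same, for example 99 clonotypes in LN, and no p can go below 0.125. The numbers were not treated as a pairing: the V family deviations of same-numbered libraries correlated at -0.674 to 0.472 over 6 pairs of groups. Depth sets the threshold at 58 to 147 reads.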

Other observations

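The mean net charge of the CDR3, counting lysine and arginine as positive and aspartate and glutamate as negative, was 0.183 to 0.588 in expanded and 0.330 to 0.515 in other rows of a library, and expanded rows were not uniformly higher or lower. The median J segment number, which falls towards the constant region, was higher in expanded than in other rows of all 4 thymus libraries, at 31 against 27 and 39 against 33 in Themis+/+ and 26 against 23 and 30 against 24 in Themis-/-. In the LN it was 27 against 26 in both Themis-/- libraries, and equal at 31 and at 30 in the Themis+/+ libraries. Serine was the most frequent residue between the ends after alanine in expanded rows, at 11.8% ± 2.32 against 10.8% ± 0.229 in other rows (SD, n = 8), and glycine and glutamate were lower in expanded rows of 8 of 8 libraries with J-end bases put back. Within TRAV14-TRAJ22 joints 26 expanded rows held 12 different sequences, 16 of the rows being the pair found in all libraries, and TRAV6-TRAJ22 joints supplied 12 rows. These values were not tested.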
